A study of Mus musculus with 6 samples.

Results

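The adult globins and the red cell form of the first heme synthesis enzyme were followed in prefrontal cortex from mice with and without Nrf2. The genes are Hba-a1 and Hba-a2 (alpha chains), Hbb-b1, Hbb-b2 and Hbb-bt (beta chains) and Alas2. They were chosen by their measured levels on these same arrays, where the globins were higher in the knockout, so their genotype differences are given as a description, with no test. Every probe named for one of these 6 genes, or designed on one of their RefSeq transcripts, was used: 11 of the 150305 probes on the array. The 9 globin probes and 2 Alas2 probes were all well above background on all 6 arrays, by the call of the scanner software, and none was saturated.

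All samples came from the prefrontal cortex of males of the outbred ICR stock, 3 to 4 months old: 3 were wild type and 3 Nrf2 knockout, and the labels name no treatment. Each was hybridised alone to 1 Agilent array with probes for coding, long non-coding and circular RNAs. The deleted part of the gene, whether each sample is a separate animal and whether blood was washed out of the brain are not stated in the sources used. All spreads below are therefore between samples and may be technical.

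A level is the log2 processed signal with the 75th percentile of that array subtracted. A level of 5 is thus a signal 5 doublings above that percentile. Levels of different probes are not compared as amounts of RNA. That percentile lay between 245 and 280.3 signal units, and the share of probes well above background was 71.0 to 73.3% per array. The 3 wild type arrays and knockout 1 were on slide 1, and knockouts 2 and 3 on slide 2. On the first principal component (52.2% of the variance) knockouts 2 and 3 stood apart from the 4 arrays of slide 1. Of 3 coding probes of Nfe2l2, the gene of Nrf2, 2 were not well above background on any knockout array. The remaining one had levels of 0.35 to 0.49 in wild type and −3.79 to −3.46 in the knockout (limma adjusted p = 6.13e-04). The 10 neuron and cortical layer markers were all well above background on all 6 arrays.

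Hemoglobin is a tetramer of alpha and beta chains, each holding a heme. In red cell precursors Alas2 makes the first intermediate of heme inside mitochondria, while its relative Alas1 serves other tissues. Reticulocytes and young red cells still carry globin mRNA, so tissue that holds blood carries it too, and low globin expression has also been described in neurons and glia. In a bulk sample, more cells of a type and more RNA per cell cannot be told apart. Nrf2 is a transcription factor of antioxidant and detoxification genes and a relative of the erythroid factor NF-E2, which binds the beta globin locus. Laboratory mice carry beta globin genes in alternative haplotypes, one with Hbb-bs and Hbb-bt and one with Hbb-b1 and Hbb-b2. The sources used here do not give the haplotype of these mice.

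The probes decide what a globin value means, so those in the coding part are shown whole, on build mm9, 5′ to 3′. Capitals mark the 29 bases that probes B and C of Hbb-bt have in common. Hba-a1 probe A lies at chr11:32183775-32183956, on the plus strand, and its 60 bases span 182 bases of the genome because they cross an intron. Hbb-bt probes A (chr7:110962317-110962376), B (chr7:110962031-110962090) and C (chr7:110962000-110962059) are on the minus strand.
Hba-a1 probe A: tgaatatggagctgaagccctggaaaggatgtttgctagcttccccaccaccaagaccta
Hbb-bt probe A: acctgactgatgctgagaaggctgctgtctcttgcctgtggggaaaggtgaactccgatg
Hbb-bt probe B: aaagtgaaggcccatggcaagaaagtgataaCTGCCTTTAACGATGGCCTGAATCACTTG
Hbb-bt probe C: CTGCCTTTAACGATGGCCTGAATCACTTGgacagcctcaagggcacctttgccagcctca

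The files match Hba-a1 probe A to the transcripts of both Hba-a1 and Hba-a2. Probe A of Hbb-bt matched 4 beta globin genes (Hbb-b1, Hbb-b2, Hbb-bs and Hbb-bt), probes B and C matched 3 (Hbb-b1, Hbb-bs and Hbb-bt), and probe D, at chr7:110961112-110961171, matched Hbb-b2 and Hbb-bt. A value from these probes is therefore a sum over near copies, whatever gene name the probe carries. Alas2 probe A, at chrX:147004993-147005052, matched Alas2 alone.

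The other 5 probes were designed for this array, and 4 of them hold AATAAA, the polyadenylation signal, so they read the 3′ end of the mRNA. Parts of at most 30 bases show how close the copies are. In the first pair capitals mark the bases after the run of 56 that Hba-a1 probe B shares with the Hba-a2 probe. In the second pair capitals mark the 2 bases by which the probe of Hbb-bs, a beta globin gene outside the set, differs from that of Hbb-b1. In the last pair they mark the polyadenylation signal.
Hba-a1 probe B, last 30 bases: tttgaataaagcctgagtaggaagaaAAAA
Hba-a2 probe, last 30 bases: gtctttgaataaagcctgagtaggaagaaG
Hbb-b1 probe, 28 bases: ggcaaaatgatagacatttgaaaatctg
Hbb-bs probe, 30 bases: ggcaaaatgataAAgacatttgaaaatctg
Hbb-b2 probe, 30 bases: tagcttttatctAATAAAtgatatttactg
Alas2 probe B, 30 bases: cttgattctgaaAATAAAgagcaacttgaa

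With so few bases different, values of Hba-a1 against Hba-a2, and of Hbb-b1 against Hbb-bs, are uncertain between the copies. No other probe on the array (0) shared a run of 25 bases or more with a globin or Alas2 probe.

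All 11 probes had a higher mean in the knockout, by 0.23 to 0.79 on the log2 scale with a median of 0.60, which is 1.18 to 1.73-fold. The groups did not overlap on 10 of the 11 probes. Because the set was chosen for being higher, nothing is read from that count; among all probes measured on all arrays, 11.1% were higher in every knockout array than in every wild type array. A difference at least as large as the smallest of these (0.23) was reached by 15.2% of all tested probes.

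**Figure D1:**
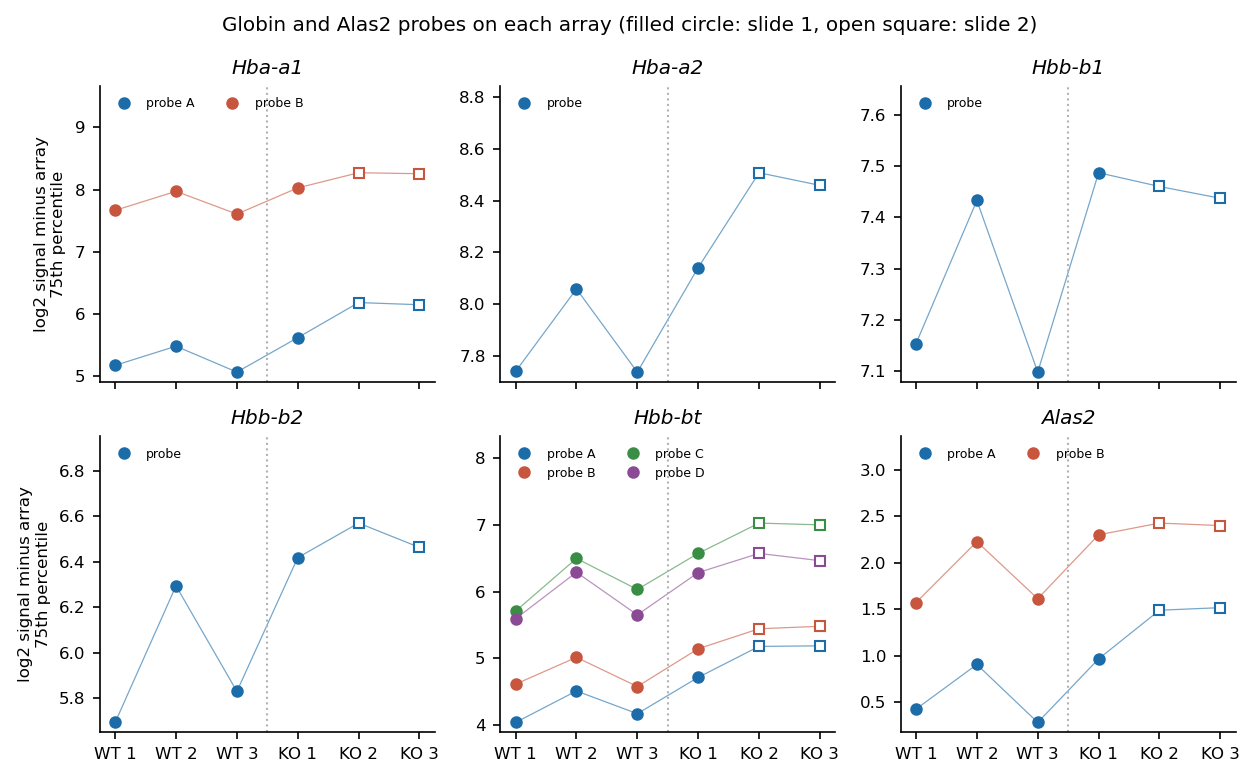
Level of each globin and Alas2 probe (vertical axis, log2 signal minus the 75th percentile of the array; each panel has its own scale) on the 3 wild type (WT) and 3 knockout (KO) arrays, with slide 1 as filled circles and slide 2 as open squares. On every probe WT 2 is the highest wild type array, and on 10 of 11 KO 1 is the lowest knockout array.

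Alpha globin was read by 3 probes. On Hba-a1 probe A, in the coding part, the levels were 5.17, 5.48 and 5.07 in wild types 1 to 3 and 5.62, 6.18 and 6.15 in knockouts 1 to 3. The means were 5.24 ± 0.22 (SD, n = 3) and 5.98 ± 0.32 (n = 3), a difference of 0.74, or 1.67-fold. Knockout 1 lay just above wild type 2, and knockouts 2 and 3 stood well above the other arrays.

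Hba-a1 probe B, at the 3′ end, had 7.67, 7.97 and 7.61 in wild type against 8.03, 8.27 and 8.26 in the knockout. Its means of 7.75 ± 0.20 and 8.19 ± 0.14 (n = 3 each) differ by 0.44. The Hba-a2 probe had 7.74, 8.06 and 7.74 against 8.14, 8.51 and 8.46, with means of 7.84 ± 0.19 and 8.37 ± 0.20 (n = 3 each) and a difference of 0.53. Both followed the order of probe A, with wild type 2 the closest wild type array to the knockouts.

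Beta globin was read by 6 probes, and its smallest difference was at Hbb-b1. The Hbb-b1 probe had 7.15, 7.43 and 7.10 in wild type against 7.49, 7.46 and 7.44 in the knockout, with means of 7.23 ± 0.18 and 7.46 ± 0.02 (n = 3 each). The difference was 0.23, or 1.18-fold. Here the knockout arrays were nearly level with each other and with wild type 2, and the group difference rested on the low levels of wild types 1 and 3. The probe of its near copy Hbb-bs had 7.26, 7.63 and 7.27 against 7.61, 7.51 and 7.54, a difference of 0.17, and its highest array was wild type 2.

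On the Hbb-b2 probe the levels were 5.69, 6.29 and 5.83 in wild type against 6.42, 6.57 and 6.46 in the knockout. The means were 5.94 ± 0.32 and 6.48 ± 0.08 (n = 3 each), a difference of 0.55. The wild type samples spread more widely than the knockout samples, and the gap between wild type 2 and the lowest knockout array was 0.12.

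The widest differences among the beta chains came from the Agilent probes named for Hbb-bt. Probe A had 4.04, 4.51 and 4.17 in wild type against 4.71, 5.18 and 5.19 in the knockout. Its means were 4.24 ± 0.24 and 5.02 ± 0.27 (n = 3 each). Probe C had 5.71, 6.50 and 6.03 against 6.57, 7.03 and 7.00, with means of 6.08 ± 0.40 and 6.87 ± 0.26 (n = 3 each). Each differed by 0.79 between the groups, with knockouts 2 and 3 at the top.

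Probe B, which shares 29 bases with probe C, had 4.61, 5.01 and 4.58 in wild type against 5.14, 5.44 and 5.48 in the knockout, a difference of 0.62. Probe D had 5.59, 6.29 and 5.65 against 6.28, 6.57 and 6.46, a difference of 0.60. It was the 1 probe on which the groups overlapped, since knockout 1 lay 0.01 below wild type 2.

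Averaged over the probes of each chain, after the wild type mean of each probe was taken off, alpha globin stood at −0.08, 0.23 and −0.14 in wild types 1 to 3 and at 0.32, 0.71 and 0.68 in knockouts 1 to 3. Beta globin stood at −0.21, 0.33 and −0.12 and at 0.43, 0.70 and 0.66. Both chains thus put the 6 arrays in nearly the same order, with knockout means of 0.57 ± 0.22 (alpha, 3 probes) and 0.60 ± 0.15 (beta, 6 probes; SD over n = 3 arrays).

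Alas2 was read by 2 probes, and on both wild type 2 was the highest wild type array and knockout 1 the lowest knockout array. Alas2 probe A had 0.43, 0.91 and 0.28 in wild type against 0.97, 1.49 and 1.52 in the knockout, with means of 0.54 ± 0.33 and 1.32 ± 0.31 (n = 3 each) and a difference of 0.79. On Alas2 probe B, at the 3′ end, the levels were 1.57, 2.23 and 1.61 against 2.30, 2.43 and 2.40, with means of 1.80 ± 0.37 and 2.38 ± 0.07 (n = 3 each) and a difference of 0.57. Wild type 2 lay 0.06 below knockout 1 on probe A and 0.07 below it on probe B. Over the 6 arrays, the Pearson correlation of Alas2 with the mean of the centred globin probes was 0.99 for probe A and 0.97 for probe B. This is a description over 6 arrays that share slides and processing.

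**Figure D2:**
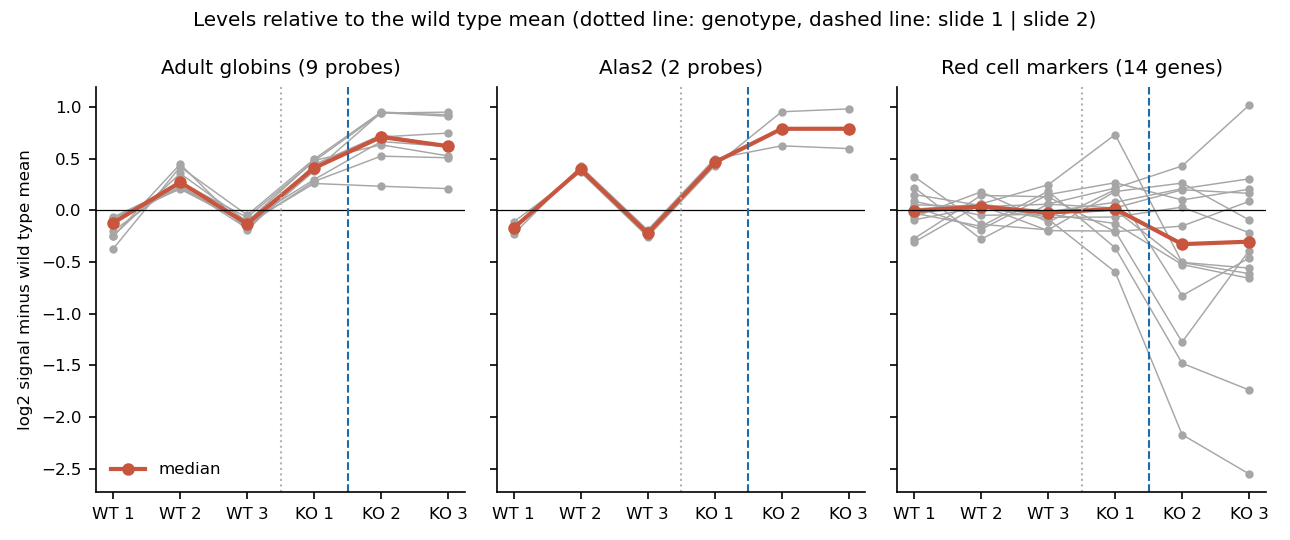
Log2 signal minus the wild type mean of the same probe (vertical axis) on each array for the 9 globin probes, the 2 Alas2 probes and the 14 tested red cell markers (grey, 1 line per probe; red, median), with the dotted line between genotypes and the dashed line between slides. Globins and Alas2 stand higher at WT 2 than at WT 1 and WT 3, and on most probes higher at KO 2 and KO 3 than at KO 1, whereas the median of the red cell markers stays near 0 on slide 1 and their lines spread in both directions on slide 2.

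Much of the order of the arrays was shared across the set. Wild type 2 was the highest wild type array on 11 of 11 probes, by 0.31 to 0.67 above the mean of wild types 1 and 3. Knockout 1 was the lowest knockout array on 10 of 11. Among all probes, 12.5% had wild type 2 as the highest wild type array and knockout 1 as the lowest knockout array. Knockout 1 exceeded wild type 2 by −0.01 to 0.20 (median 0.08), and on 9 of 11 probes this was less than the error of 1 spot, which the scanner software put at 10%, or 0.14 on the log2 scale. The spread among wild type samples (range 0.32 to 0.79) was thus of the size of the genotype difference.

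Slide moved with these values. On 10 of 11 probes knockouts 2 and 3 were both above all 4 arrays of slide 1, as were 24.8% of all probes. Knockouts 2 and 3 exceeded knockout 1 by −0.04 to 0.55 (median 0.32) and differed from each other by 0.01 to 0.11. Within slide 1, knockout 1 exceeded the wild type mean by 0.26 to 0.50 (median 0.43). Because the probes were chosen for being higher in the knockout, nothing is read from the sign of these values. The same difference is given when slide enters the model as a block, and it rests on 1 knockout array. For Hba-a1 probe A the within-slide value was 0.38 against 0.74 over all arrays, for Hba-a2 0.30 against 0.53, for Hbb-bt probe A 0.47 against 0.79, and for Alas2 probe A 0.43 against 0.79. In the step between the slides, slide and sample cannot be told apart, since slide 2 held knockout arrays alone.

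**Figure D3:**
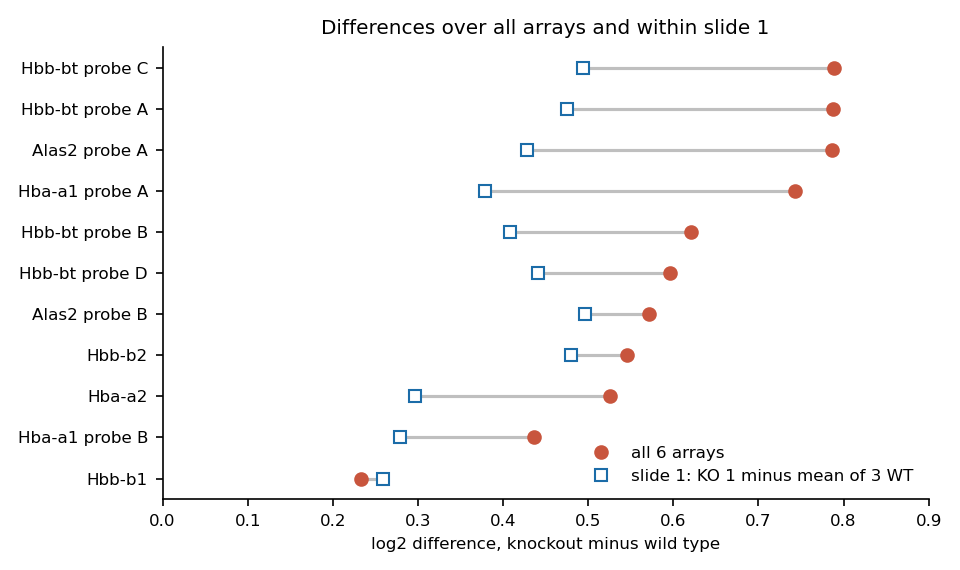
Log2 difference, knockout minus wild type (horizontal axis), for each of the 11 probes over all 6 arrays (red circles) and within slide 1 (blue squares, KO 1 minus the mean of the 3 WT arrays). The values run from 0.23 to 0.79 over all arrays and from 0.26 to 0.50 within slide 1.

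The step from slide 1 to slide 2 also depended on the probe. For Hba-a1 it was 0.55 at the coding probe and 0.24 at the 3′ probe, and for Alas2 it was 0.54 at probe A and 0.11 at probe B. Hbb-b1 had a step of −0.04 and Hbb-bs one of −0.09, against 0.47 at Hbb-bt probe A, which also matches both. Over 13658 coding genes with a tested probe of each kind, the median step was 0.10 on Agilent's own probes and 0.07 on the probes made for this array, and the median of the difference between the kinds was 0.03 (quartiles −0.14 and 0.19). A difference as large as that of Hba-a1 (0.31) was found in 14.2% of these genes.

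The array also held 3 probes for circular RNAs whose positions lie inside Hba-a1. Such RNAs are loops in which the end of an exon is spliced back to an upstream start. The one at chr11:32284099-32284451 (GRCm38, plus strand) had 7.76, 8.04 and 7.74 in wild type against 8.09, 8.48 and 8.47 in the knockout. Its probe shares 24 of 60 bases with the linear Hba-a2 probe. The one at chr11:32283954-32284451 had 5.16, 5.52 and 5.17 against 5.60, 6.19 and 6.17. The one at chr11:32283702-32284386 had 3.66, 3.96 and 3.59 against 4.21, 4.72 and 4.73, and its probe shares 20 bases with the first 50 of the Hba-a1 transcript. The differences were 0.50, 0.70 and 0.82, and on each of these probes wild type 2 was the highest wild type array and knockout 1 the lowest knockout array, as for the linear mRNA. Whether loops or linear mRNA gave these signals was not tested.

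The promoters of Hba-a1, Hbb-bt and Alas2 are shown as the 150 bases before the start of the gene, from RefSeq on GRCm38.p6. Capitals mark matches, on either strand, to GATAA (the core bound by GATA factors), CACCC (bound by Klf1 and relatives), CCAAT (the CCAAT box), TATAA (the TATA box) and TGACNNNGC (the core of the sites bound by Nrf2 and NF-E2 with small Maf proteins). The Hba-a1 promoter is chr11:32283522-32283671 on the plus strand, that of Hbb-bt chr7:103813924-103814073 on the minus strand, and that of Alas2 chrX:150547267-150547416 on the plus strand.
Hba-a1 promoter: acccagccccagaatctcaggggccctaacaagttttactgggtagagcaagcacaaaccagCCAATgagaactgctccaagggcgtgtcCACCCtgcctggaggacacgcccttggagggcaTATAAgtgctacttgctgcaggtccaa
Hbb-bt promoter: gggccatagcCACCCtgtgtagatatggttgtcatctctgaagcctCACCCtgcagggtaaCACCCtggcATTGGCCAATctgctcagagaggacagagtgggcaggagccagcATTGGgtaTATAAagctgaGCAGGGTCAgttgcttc
Alas2 promoter: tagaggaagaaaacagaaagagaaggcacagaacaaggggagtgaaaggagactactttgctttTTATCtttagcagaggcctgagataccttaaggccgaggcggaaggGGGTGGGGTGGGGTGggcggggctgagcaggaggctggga

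In the 250 bases before the start, GATAA was found in 5 of 5 promoters read (Hba-a1, Hba-a2, Hbb-bt, Hbb-bs and Alas2), against 23.0% of 27025 promoters of the same length. CACCC was likewise in 5 of 5 (51.3% of all), TATAA in 5 of 5 (23.5%) and CCAAT in 4 of 5 (34.5%), the exception being Alas2. In Alas2 TATAA lay 207 bases before the start, where it overlaps its own match on the other strand. TGACNNNGC was found in 1 of 5, Hbb-bt, 17 bases before the start, against 10.1% of all. A run of 297 of the 300 bases around the start was common to Hba-a1 and Hba-a2, so they are not independent in these counts. The counts include Hbb-bs, which is outside the set. They lack Hbb-b1 and Hbb-b2, whose promoters were not in the reference used. These matches are letters in a window and say nothing of binding in these samples.

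Other genes of the pathway, of red cells and of other cells that blood or cortex could bring were read from 17 lists with 184 genes, of which 170 had a tested probe. Each gene is given by its tested probe of the highest mean level, with limma's standard error (SE). Of the 170, 0 rose and 0 fell at limma's adjusted threshold (lowest adjusted p = 0.307), as did 0.0166% of 18051 genes in either direction, and 26 had an unadjusted p under 0.05, which 12.5% of all genes had. With slide as a block, 0 of 170 passed, against 0.00554% of all genes. Without knockout 1, which leaves each genotype on a slide of its own, 20 passed, as did 9.04% of all genes. The median log2 difference over all 18051 genes was −0.01.

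**Figure D4:**
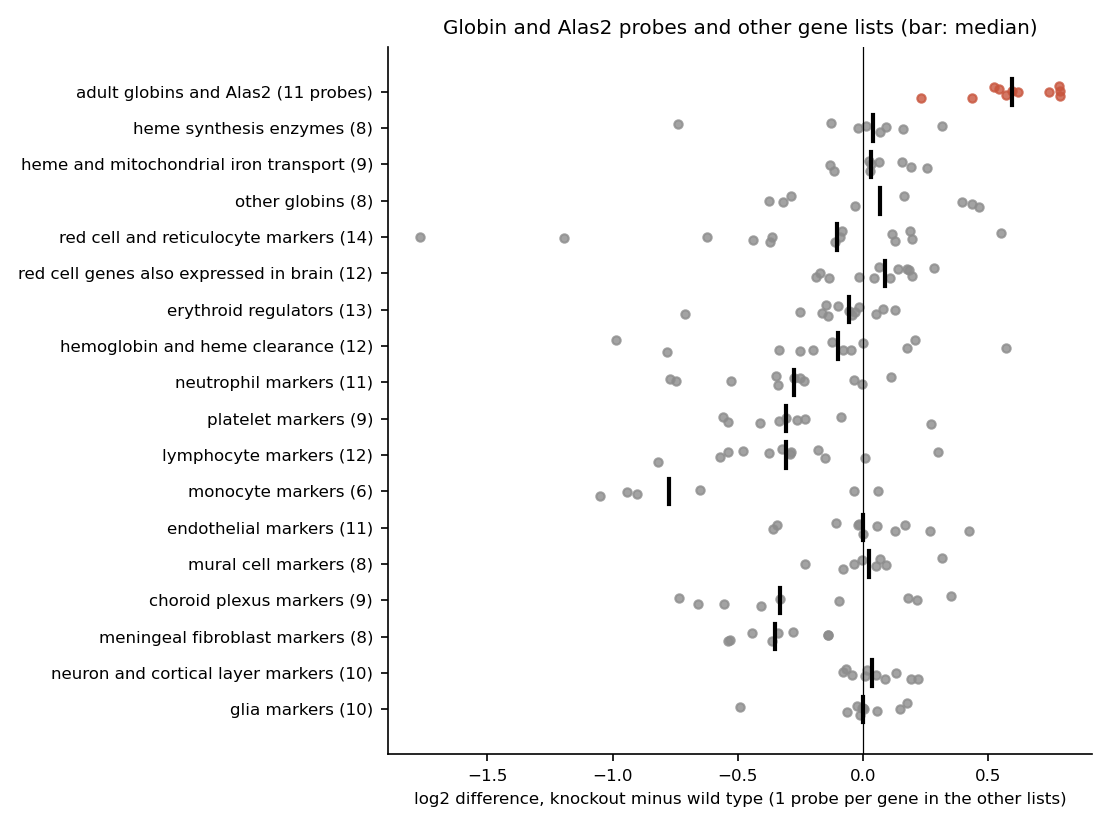
Log2 difference, knockout minus wild type (horizontal axis), for the 11 globin and Alas2 probes (red) and for the genes of 17 other lists (grey, number of genes in brackets), with black bars for medians. The globin and Alas2 probes, chosen for being higher in the knockout, lie between 0.23 and 0.79. The 14 red cell markers, with 1 probe per gene, lie on both sides of 0 around a median of −0.10. Because of that choice, nothing is read from the contrast between them.

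The remaining heme synthesis enzymes stood close to 0 as a group. Of 8 tested, 0 passed, and their median difference was 0.04, or −0.06 with slide as a block. Alas2 probes A and B, from the set chosen for being higher in the knockout, gave 0.79 and 0.57. With slide as a block the Alas2 values were 0.43 and 0.50. Alas1, the form that serves most tissues, had 3.93, 3.84 and 3.90 in wild type against 3.85, 4.09 and 4.21 in the knockout, a difference of 0.16 (SE 0.12, limma adjusted p = 0.490), with −0.04 within slide 1. Its other probes gave 0.11 (SE 0.11) and −0.32 (SE 0.12, limma adjusted p = 0.320), so the probes of Alas1 disagree in sign. Alad, which joins the Alas product into porphobilinogen, differed by 0.32 (SE 0.16, limma adjusted p = 0.364). For Alad the value within slide 1 was 0.07, and its other probe gave 0.20 over all arrays. Fech, which inserts iron into the ring as the last step, had 2.35, 3.17 and 3.23 in wild type against 2.27, 2.19 and 2.08 in the knockout. Its difference of −0.74 (SE 0.24, limma adjusted p = 0.309) was shared in sign by 1 of its 2 other probes, which gave −0.42 and 0.23. The 9 genes of heme and mitochondrial iron transport had a median of 0.03, and the mitochondrial iron importer Slc25a37 differed by 0.02 (SE 0.11, limma adjusted p = 0.920).

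Other members of the globin family were read by 8 tested genes, of which 0 passed, with a median of 0.07, or 0.00 with slide as a block. Their differences ran from −0.37 (Hbb-bh2) to 0.47 (Hbb-bh1). On slide 1 alone the values were 0.11 for Hbb-bh2 and −0.03 for Hbb-bh1. Hbq1a differed by 0.395 (SE 0.19, limma adjusted p = 0.354) and Hbq1b by 0.44 (SE 0.19, limma adjusted p = 0.334). Within slide 1 these were 0.05 and 0.02, and the other probes of Hbq1a and Hbq1b gave 0.09 and 0.20. Embryonic Hbb-bh1 had −1.70, −1.85 and −1.79 in wild type against −1.81, −0.96 and −1.18 in the knockout, so only the slide 2 arrays were high. Its other probes were each well above background on 1 of the 6 arrays and were not tested, so its value rests on 1 probe. The probes of embryonic Hbb-y disagree. The one of the highest level had −1.18, −1.18 and −1.18 in wild type against −1.32, −1.37 and −1.71 in the knockout, a difference of −0.29 (SE 0.12, limma adjusted p = 0.337). The dimmer one had −4.65, −4.44 and −4.87 against −4.14, −3.85 and −3.87. Its difference was 0.70 (SE 0.14, limma adjusted p = 0.307) without overlap of the groups, and 0.51 within slide 1. Neuroglobin (Ngb), the globin of neurons, differed by −0.32 (SE 0.19, limma adjusted p = 0.427) and cytoglobin (Cygb) by −0.03 (SE 0.13, limma adjusted p = 0.918). Within slide 1 the value of Ngb was −0.01, and the other probe of Cygb gave 0.14. Hba-x, the embryonic alpha chain, and myoglobin (Mb) were not tested, having too few arrays well above background.

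The markers of red cells and reticulocytes had no common direction. Of 18 genes, 14 were tested, 0 passed, 5 were above 0 and 9 below, with a median of −0.10. The median was 0.01 with slide as a block, −0.25 without wild type 1 and −0.31 without knockout 1. Slc4a1, the band 3 anion exchanger of the red cell membrane, had 0.48, 0.52 and 0.40 in wild type against 0.40, 0.50 and 0.25 in the knockout (difference −0.08, SE 0.10, limma adjusted p = 0.668). Kel, a blood group protein, differed by −1.19 (SE 0.35, limma adjusted p = 0.307), with −0.36 within slide 1. Epb42, Rhag and Hemgn were not tested, and Ahsp was not matched to a probe. The summed level of the 14 genes, each as a multiple of the 75th percentile, was 61.8 to 65.8 in wild type and 65.4 to 69.4 in the knockout. Tmcc2, which is also expressed in brain, made up 61.1 to 66.6% of it, and without Tmcc2 the sum was 23.5 to 24.0 in wild type and 23.2 to 24.5 in the knockout. Such sums and shares, here and for the lists below, are of probe signal and not of RNA amount. Most of these genes had levels below 0.

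Red cell genes that brain cells also express gave a median of 0.09 over 12 tested genes, of which 0 passed, and one of −0.03 with slide as a block. Bpgm, which makes the red cell regulator of oxygen release, differed by 0.20 (SE 0.10, limma adjusted p = 0.370), and Dmtn, an actin bundling protein, by 0.29 (SE 0.14, limma adjusted p = 0.359). Erythroid regulators gave a median of −0.05 over 13 genes, of which 0 passed. Gata1, the main factor of red cell differentiation, had −4.01, −4.30 and −4.36 in wild type against −4.28, −4.28 and −4.85 in the knockout, and it was well above background on 2 of the 3 knockout arrays. Klf1, a factor that drives beta globin, had −1.65, −1.52 and −1.52 against −1.44, −1.73 and −2.01. On these probes neither showed the globin order, and the other probe of Klf1 gave 0.35 (SE 0.37, limma adjusted p = 0.627) against −0.16 here.

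Hemoglobin and heme clearance gave a median of −0.10 over 12 genes, of which 0 passed. Hpx (hemopexin), which binds free heme, had −2.60, −2.77 and −2.86 in wild type against −2.34, −1.97 and −2.20 in the knockout. Its difference of 0.57 (SE 0.13, limma adjusted p = 0.307) came without overlap of the groups, and it was 0.41 within slide 1. Hp (haptoglobin), which binds free hemoglobin, differed by −0.99 (SE 0.52, limma adjusted p = 0.383), with −0.11 within slide 1. Cd163, the macrophage receptor for that complex, had −0.42, 0.22 and −0.19 against −1.00, −1.01 and −0.73, a difference of −0.78 (SE 0.18, limma adjusted p = 0.307). Hmox1, the inducible heme oxygenase and a known Nrf2 target, differed by −0.25 (SE 0.10, limma adjusted p = 0.333), and its other probe by 0.02.

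Markers of other blood cells mostly had a knockout mean below that of wild type, with 0 past the threshold in each list. Of 11 tested neutrophil genes 10 were below 0 (median −0.28), and of 9 platelet genes 8 (median −0.31). Of 12 lymphocyte genes 10 were below 0 (median −0.31), and of 6 monocyte genes 5 (median −0.77). Within slide 1 these medians were 0.40 for neutrophil, −0.17 for platelet, −0.08 for lymphocyte and −0.40 for monocyte genes, so the neutrophil median turned direction. Without single arrays the neutrophil median ran from −0.94 (without knockout 1) to 0.11 (without wild type 2), and the lymphocyte median was −0.17 without knockout 2. With normexp and quantile normalisation the medians of platelet, lymphocyte and monocyte genes were −0.15, −0.08 and −0.52. S100a9, a neutrophil calprotectin subunit, had −0.54, 2.92 and 3.95 in wild type against 3.29, 0.56 and 1.77 in the knockout, an order unlike that of the globins. The summed level of 11 neutrophil genes ran from 6.43 to 32.3 in wild type and from 5.19 to 22.5 in the knockout, and that of 9 platelet genes from 8.22 to 9.76 and from 8.05 to 9.14. That of 12 lymphocyte genes was 99.0 to 106.9 in wild type and 61.9 to 86.6 in the knockout, and Klrb1c, its brightest gene, made up 83.4 to 86.0% of it. Whether blood content differed between the samples was not tested beyond these levels.

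Vessel, neuron and glia markers had medians near 0. The median was 0.00 over 11 endothelial genes, 0.02 over 8 mural cell genes, 0.04 over 10 neuron genes and 0.00 over 10 glia genes. Single genes ran from −0.36 to 0.42 (endothelial), −0.23 to 0.32 (mural), −0.08 to 0.22 (neuron) and −0.49 to 0.18 (glia). Within slide 1 the endothelial median was −0.08. Choroid plexus genes (median −0.33 over 9) and meningeal fibroblast genes (median −0.35 over 8, with 8 of 8 below 0) had medians further below 0, with 0 past the threshold in either list. The choroid plexus median was −0.28 within slide 1 and −0.06 with normexp and quantile normalisation. The meningeal median was −0.59 within slide 1, −0.13 without wild type 1 and −0.17 without knockout 1. The summed level of the meningeal genes was 38.4 to 58.1 in wild type and 33.7 to 39.7 in the knockout, and that of the choroid plexus genes 3.34 to 3.78 and 2.80 to 3.37. The part of these cells in the globin values was not tested.

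The coding genes outside the globin family whose levels were most like the globins over the 6 arrays were taken from 6044 whose spread was at least 0.5 times that of the globin mean. The measure was Pearson's correlation with the mean of the 9 centred globin probes, over 6 arrays. In order, the 10 highest were Ovol1 (r = 0.99), Traf3ip3 (r = 0.99), Entpd2 (r = 0.97), Ttc12 (r = 0.96), Plekho2 (r = 0.96), Myh15 (r = 0.96), 4930451I11Rik (r = 0.95), Olfr638 (r = 0.95), Olfr786 (r = 0.95) and Pak6 (r = 0.95). Of the 6044, 2 had a correlation at least that of Alas2 probe B (0.97). The globins and Alas2 were chosen with the levels on these arrays known, so nothing is read from this rank. No marker of red cells was among the 10. At most the 14 tested markers could be among the 6044, so nothing is read from this absence. Entpd2, an enzyme that splits ATP outside cells, had 1.84, 2.16 and 2.04 in wild type against 2.29, 2.55 and 2.56 in the knockout, and its other tested probe had a correlation of 0.87. The other probes of Ttc12 gave −0.16 and 0.00, so its likeness rests on 1 of 3 probes. Ovol1 and Traf3ip3 were dim, between −3.88 and −2.75, and each had 1 tested probe. Olfr786, Olfr638 and 4930451I11Rik were dim too, between −4.93 and −2.98. The other tested probe of 4930451I11Rik had a correlation of 0.60, that of Olfr638 0.79 and that of Plekho2 0.91. Olfr786, Myh15 and Pak6 had 1 tested probe each.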

How the data were processed

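The scanner output of 6 arrays (1 colour, Cy3, Agilent; 3 wild type and 3 knockout samples) holds intensity values that the authors made by background subtraction and detrending in Agilent Feature Extraction; per the file headers its version was 12.0.3.1, while the submitters' processing notes give 10.7 and also name limma. The authors' deposited value table is on a log2 scale, as its columns correlate with log2 of the processed signal at 0.99986 or more; its further steps are not stated in the sources used, and it served as an alternative. Here, the 75th percentile of each array was taken off the log2 processed signal, control spots and outlier spots were left out, and the 105924 probes well above background on all 3 arrays of a group were fitted with limma 3.58.1 in R 4.3.3 (lmFit, eBayes, two-sided, Benjamini-Hochberg over all tested probes). The number of arrays limits the precision.

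Slides were read from slide numbers and scan times. The globins and Alas2, the gene lists and the rule for named genes (every globin and Alas2 probe; per list those past the threshold or up to 4 with the largest difference, with Alas1, Fech, Slc4a1, Gata1 and Klf1 among those always named; 10 genes most like the globins) were chosen with earlier results of these data known. Some single red cell genes that this rule names are not reported here. Promoters came from RefSeq (GRCm38.p6); positions of Agilent probes are on mm9 per the file headers. Python 3.11.15, pandas 2.3.3 and matplotlib 3.10.9 were used. Symbols of 48048 of the 48467 probes on RefSeq transcripts came from the GRCm38.p6 table, and the others kept the array's name. Alternatives were other scalings, filters, a slide or replicate block, slide 1 alone and leaving out each array.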

Additional observations from a re-analysis of the deposited data

How the results depend on the processing

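The 11 globin and Alas2 probes were chosen for being higher in the knockout, so their sign under other settings says nothing of stability. Their values lay between 0.17 and 1.00 under 14 alternatives, of which 3 leave these values as reported by construction and the slide block gives the same value as slide 1 alone. The median over the globin probes was 0.60, and it ranged from 0.47 to 0.76 when single arrays were left out (lowest without wild type 1, highest without wild type 2), with 0.41 under the slide block or on slide 1 alone and 0.53 with the brightest probe of each gene. The median over the Alas2 probes was 0.68, ranged from 0.57 to 0.88 without single arrays and was 0.46 under the slide block. Array median scaling gave 0.65 and 0.73.

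The number of probes past the adjusted threshold, 10, was 4 with only probes well above background on all 6 arrays, 4 on slide 1 alone, and 5 to 13558 when 1 array was left out. The highest count came without knockout 1, a setting in which genotype and slide coincide; without wild type 1 it was 50. With the replicate number as a block it was 2. The numbers do not pair the samples: deviations of same-numbered samples correlated at −0.01, −0.05 and 0.04. List genes passed (20 in all) without knockout 1 and in no other of these settings (0). Dim probes such as that of Gata1 are limited by their signal over background.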
